A study of Rattus norvegicus with 12 samples.

Results

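The genes of the Wnt pathway, with its feedback inhibitor Axin2, were examined in adipose tissue of the epididymal fat pad, which lies next to the testis, in 12 rats. They were chosen by gene symbol in the annotation of the array: the numbered Wnt, Fzd, Sfrp, Dkk, Dvl, Axin and Nkd families, together with Ctnnb1, Lef1, Tcf7, Tcf7l2, Lrp5, Lrp6, Apc, Gsk3b and Wif1. This rule found 41 of the 22523 probes on the array, for 40 of the 13337 genes with a symbol there. No probe carried the symbol Tcf7 or that of an Nkd gene here. Of the 41 probes, 27 passed the detection filter and were tested, among 12196 tested probes in all. The rats were male Sprague-Dawley rats aged 40 days. One group of 6 was labelled as without food for 6 h, and the other group of 6 was fed ad lib. Both the hours without food and the clock times of the removal differ between these labels and the study's text, so the duration is not settled. RNA of each rat was hybridized to 1 array of a single chip that holds 12 arrays, Illumina's RatRef-12 BeadChip.

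Wnt proteins are secreted ligands that bind Frizzled receptors and the co-receptors Lrp5 and Lrp6 at the cell surface. In the absence of a ligand, a complex of Axin, Apc, Gsk3b and casein kinases marks beta-catenin for degradation. When a ligand is bound, beta-catenin builds up, enters the nucleus and switches on target genes together with the TCF and LEF proteins. Axin2 is both a target of this pathway and a part of the complex that degrades beta-catenin, so that it acts as a negative feedback. In mouse preadipocytes, Wnt signalling holds back differentiation into fat cells.

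The groups are named as the samples are labelled. The direction of the array labels runs against that given in the study. Angptl4, the fasting-induced inhibitor of lipoprotein lipase, was lower by a log2 difference of -2.08 on the food removed arrays (brighter of its probes, SE 0.27, adjusted p = 0.00111). Pdk4, a kinase that restrains glucose oxidation, was lower by a log2 difference of -2.95 (SE 0.27, adjusted p = 0.000236). If the labels were exchanged, every sign given below would turn. All signals are log2 values after background correction and quantile normalization. Adjusted p-values come from limma's moderated test with Benjamini-Hochberg adjustment over the 12196 tested probes, and each is based on the spread between 12 rats. In whole tissue, fewer cells of a type and less RNA per cell cannot be told apart.

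The raw median signals of the arrays lay between 91.1 and 140, and 51.2% to 59.6% of the probes were detected on an array. All 9 adipocyte marker genes with a probe were detected on every array. The summed signal of 14 epididymis markers, genes of the neighbouring duct, was over 3 times that of the median array on 3 arrays. It was 154 times the median on food removed replicate 3, 3.94 times on food removed replicate 5 and 3.77 times on ad lib replicate 6. The Wnt pathway and target genes that passed, and some of the other genes, are also given without some or all of these arrays.

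Of the 27 tested Wnt pathway probes, 2 passed an adjusted p of 0.05. Axin2 was higher and Fzd1 was lower on the food removed arrays. Over all tested probes, 301 passed (2.47%), of which 128 were higher (1.05% of those tested) and 173 lower (1.42%). The same 2 Wnt pathway genes were those whose groups did not overlap, beside 305 of all tested probes (2.5%). At an unadjusted p of 0.05, 4 of the 27 passed (Axin2, Fzd1, Fzd8 and Wnt11), beside 1941 of all tested probes (15.9%).

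The promoters of the 2 genes that passed are shown because Axin2 is a textbook target of beta-catenin and Fzd1 is the receptor that moved the other way. The windows were taken from RefSeq on the GRCr8 assembly and run from 250 bases before to 50 bases after the start site. The Axin2 window lies at chr10:94398535-94398834 and the Fzd1 window at chr4:30264824-30265123, both on the + strand. Capitals mark CTTTGAT, a core sequence to which TCF and LEF proteins bind. Only this form was searched for. Near forms such as CTTTGAA, which the Axin2 window also holds in lower case, were not marked or counted.
Axin2: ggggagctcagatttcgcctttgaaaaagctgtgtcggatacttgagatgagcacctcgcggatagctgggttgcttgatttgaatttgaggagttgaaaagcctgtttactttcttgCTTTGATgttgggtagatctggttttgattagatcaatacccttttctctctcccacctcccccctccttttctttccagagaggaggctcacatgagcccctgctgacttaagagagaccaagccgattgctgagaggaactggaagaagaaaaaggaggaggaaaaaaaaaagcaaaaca
Fzd1: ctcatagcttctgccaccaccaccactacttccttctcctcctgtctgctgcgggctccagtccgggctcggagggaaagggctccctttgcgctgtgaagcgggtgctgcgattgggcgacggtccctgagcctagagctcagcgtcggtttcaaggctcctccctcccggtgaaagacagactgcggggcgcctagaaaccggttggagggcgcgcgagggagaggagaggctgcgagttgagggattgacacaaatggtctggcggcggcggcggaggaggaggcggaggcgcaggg
The letters CTTTGAT, or ATCAAAG on the opposite strand, stood in the Axin2 window once, from position -132 to -126 relative to the start site. They were found in 1216 of 33469 rat promoter windows (3.63%). Of the 40 Wnt pathway genes, 31 had a window, and Axin2 was the 1 gene among these whose window held the letters. Its start site in this table lies 5406 bases inside the gene record, so that other start sites of Axin2 were not searched. In the Fzd1 window these letters were not present.

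Axin2 (probe ILMN_1365286) was the feedback gene of the group and its largest difference. On the food removed arrays its log2 signal was 7.72 at the lowest, 8.34 at the median and 9.17 at the highest. On the ad lib arrays the corresponding values were 5.94, 7.11 and 7.59. Every food removed array was thus above every ad lib array. The group means were 8.37 ± 0.51 (SD, n = 6) with food removed and 7.00 ± 0.57 (SD, n = 6) ad lib. The difference was 1.36 on the log2 scale, or 2.57-fold (SE 0.27, 95% interval 0.77 to 1.95, adjusted p = 0.0171). The exact two-sided permutation test over the arrays gave p = 0.00216, the smallest that 6 against 6 arrays can give. By p-value Axin2 ranked 151 among the 12196 tested probes.

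Before normalization, the Axin2 signal ran from 255 to 733 with food removed and from 119 to 302 ad lib, so that the groups overlapped slightly on the raw scale. The standard error over the beads of an array was 2.96% to 5.36% of the raw signal. The highest Axin2 value, 9.17, was that of food removed replicate 3, the array with the strongest epididymis markers. Without this array the difference was 1.21 (adjusted p = 0.0242), and without the 3 arrays with epididymis markers it was 1.40 (adjusted p = 0.0267). The call did not hold with the methods' t-test, which uses the variance of each probe alone (adjusted p = 0.0641), or with the position on the chip as a covariate (difference 1.28, SE 0.36, adjusted p = 0.247).

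Fzd1 (probe ILMN_1350645), a Frizzled receptor for Wnt ligands, moved in the opposite direction. Its log2 signal was 8.65, 8.91 and 9.23 (lowest, median and highest) on the food removed arrays. On the ad lib arrays it was 9.46, 9.71 and 10.19, and no food removed array reached the lowest of these. The means were 8.94 ± 0.19 (SD, n = 6) and 9.77 ± 0.30 (SD, n = 6). The difference was -0.83, that is 1.78-fold lower with food removed (SE 0.15, 95% interval -1.15 to -0.52, adjusted p = 0.0083, exact permutation p = 0.00216). Fzd1 ranked 83 among the tested probes by p-value.

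On the raw scale the Fzd1 groups overlapped widely, at 417 to 1080 with food removed and 426 to 1880 ad lib. When the arrays were shifted to one median in place of quantile normalization, the difference was -0.85 but the adjusted p was 0.135. With the position on the chip as a covariate it was -1.09 (adjusted p = 0.0167). Without the 3 arrays with epididymis markers it was -0.83 (adjusted p = 0.0267). Of 6 endothelial markers with a probe, 1 was lower, the tight junction gene Cldn5 (log2 difference -0.88, adjusted p = 0.0482). The other 5 did not pass, at -0.76 for Vwf, -0.57 for Tek, -0.19 for Cdh5, 0.08 for Flt1 and 0.17 for Emcn. Their summed signal, with that of Cldn5, was 6030 to 12200 with food removed and 10200 to 13800 ad lib. At an unadjusted p of 0.05, 3 of the 6 endothelial markers passed in limma, beside 15.9% of all tested probes. The part of endothelial cells in the Fzd1 result was not tested.

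**Figure D1:**
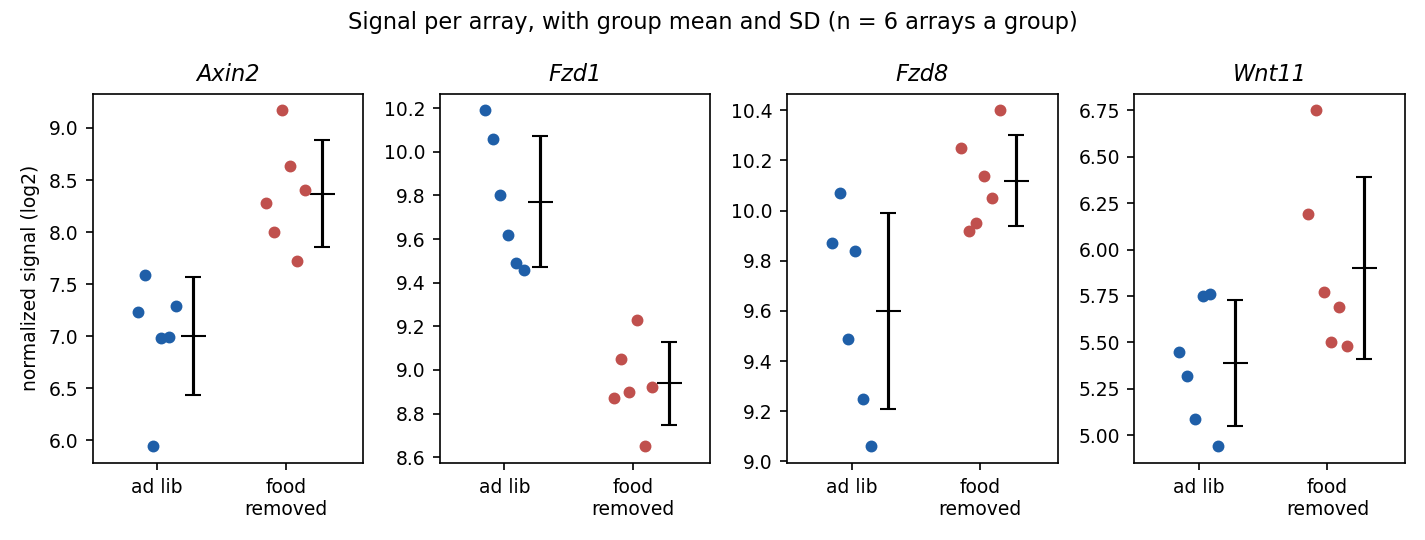
Normalized log2 signal of Axin2, Fzd1, Fzd8 and Wnt11 on each array (points, 6 ad lib in blue and 6 food removed in red), with the group mean and SD beside them (black). The axes do not start at 0 and differ between panels. The groups are apart for Axin2 and Fzd1 and overlap for Fzd8 and Wnt11.

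The groups lay almost apart on the chip, with food removed at position 1 and positions 3 to 7, and ad lib at position 2 and positions 8 to 12. Ad lib replicate 1, at position 2, lay between food removed arrays. For Axin2 it read 7.23, below the 8.28 at position 1 and the 8.0 at position 3. For Fzd1 it read 10.19, above the 8.87 and 9.05 of the same neighbours. Since the groups did not overlap for either gene, this array had to fall on the side of its own group. Its values therefore cannot separate position from group. This is also 1 array, and in this layout position and group cannot be well told apart.

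**Figure D2:**
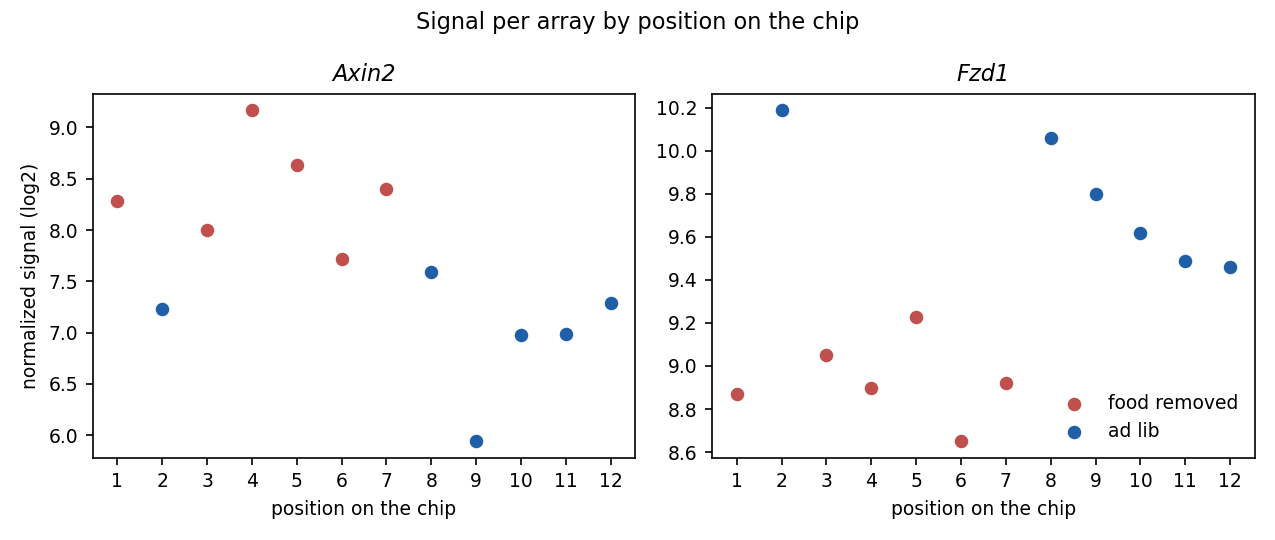
Normalized log2 signal of Axin2 and Fzd1 (vertical axes, not from 0) against the position of the array on the chip, 1 to 12. Blue points are ad lib and red points food removed arrays. The ad lib array at position 2 read 7.23 for Axin2 and 10.19 for Fzd1. It had to lie on the side of its own group, since the groups do not overlap for these genes.

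Among the other Frizzled receptors, none passed the test. Fzd8 had log2 signals of 9.92, 10.10 and 10.40 (lowest, median and highest) with food removed and of 9.06, 9.67 and 10.07 ad lib. On 3 of the 6 food removed arrays it was above every ad lib array, and 5 ad lib arrays were below every food removed array. The difference of 0.52 (SE 0.17, 95% interval 0.16 to 0.89) did not pass the adjustment (adjusted p = 0.132). Fzd4, a receptor for Wnts and for norrin, was measured by its brighter probe at 5.09, 5.43 and 5.96 with food removed and at 5.50, 5.68 and 6.30 ad lib. Its difference was -0.28 (95% interval -0.63 to 0.08, adjusted p = 0.455), and the other Fzd4 probe was detected on no array. Fzd9 differed by -0.08 (95% interval -0.43 to 0.27). The 4 tested receptors thus spanned -0.83 to 0.52, with values on both sides of 0.

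The co-receptors were well detected and did not pass. Lrp6 was at 9.17, 9.27 and 9.75 with food removed and at 8.92, 9.60 and 10.03 ad lib. The food removed arrays lay within the range of the ad lib arrays (difference -0.18, 95% interval -0.54 to 0.18, adjusted p = 0.653). For Lrp5 the difference was 0.01 (95% interval -0.28 to 0.31).

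The ligands were the largest role in the group, with 17 probes. Only 10 of them were tested, none passed (2 of the 10 were detected on all 12 arrays), and their differences ran from -0.14 to 0.51. Wnt11, a ligand known mainly for signalling without beta-catenin, was at 5.48, 5.73 and 6.75 with food removed and at 4.94, 5.39 and 5.76 ad lib. Wnt11 was dim, detected on 6 food removed and 4 ad lib arrays, and 3 food removed arrays were above every ad lib array. The difference was 0.51 (SE 0.22, 95% interval 0.04 to 0.99, adjusted p = 0.273). It was 0.35 without food removed replicate 2, 0.29 with the position on the chip as a covariate and 0.22 without background correction. Wnt6, which restrains fat cell formation in mouse cells, was at 5.18, 5.41 and 6.50 against 5.25 at the ad lib median (range 4.92 to 5.81). Wnt6 was dim, detected on 5 food removed and 3 ad lib arrays. Its difference of 0.29 (95% interval -0.18 to 0.77, adjusted p = 0.566) was 0.11 without food removed replicate 3.

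Wnt5a, the best known ligand of the branch that does not use beta-catenin, was detected on all arrays. It was at 8.94, 9.26 and 9.60 with food removed and at 8.45, 9.18 and 9.38 ad lib, with a difference of 0.20 (95% interval -0.15 to 0.55, adjusted p = 0.608). On 3 food removed arrays it was above every ad lib array. The difference was 0.08 without ad lib replicate 6 and 0.01 with the position on the chip as a covariate. Wnt10b, which blocks adipogenesis in mouse cells, was the other ligand detected on all arrays. It ran from 5.80 to 6.73 with food removed and from 5.61 to 6.78 ad lib, a difference of 0.06 (95% interval -0.40 to 0.52). Without the 3 arrays with epididymis markers the Wnt10b difference was 0.30 (adjusted p = 0.57). Wnt1, Wnt4, Wnt5b, Wnt8a, Wnt8b and Wnt9b were dim, were detected on 6 to 11 arrays each, and differed by -0.14 to 0.16.

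The secreted antagonists bind Wnts (Sfrp2, Sfrp4 and Wif1) or belong to the Dickkopf family (Dkk2 and Dkk3), whose classic members block Lrp5 and Lrp6. None of the 5 tested passed, and their differences lay between -0.07 and 0.21. Sfrp2 varied most, from 8.04 to 9.93 with food removed and from 7.92 to 9.38 ad lib, and its interval was the widest of the group (difference 0.21, 95% interval -0.46 to 0.88). Its highest value was that of food removed replicate 3, and without this array the difference was -0.01, or -0.07 without the 3 arrays with epididymis markers. For Dkk3 the difference was 0.00 (95% interval -0.44 to 0.44), and for Wif1 it was 0.01 (95% interval -0.38 to 0.40).

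Inside the cell, the 4 tested components of the beta-catenin machinery differed by 0.10 to 0.22 and none passed. Gsk3b, the kinase that phosphorylates beta-catenin, was at 9.96, 10.29 and 10.49 with food removed and at 9.80, 10.10 and 10.21 ad lib. On 4 food removed arrays it was above every ad lib array, yet the interval of the difference included 0 (0.22, 95% interval -0.02 to 0.47, adjusted p = 0.368). Ctnnb1, which encodes beta-catenin, ran from 10.16 to 10.68 against 9.96 to 11.05 ad lib (difference 0.10, 95% interval -0.28 to 0.47). Axin1, the scaffold of the destruction complex and the closest relative of Axin2, ran from 6.34 to 6.84 against 6.11 to 6.75. Its difference was 0.11 (95% interval -0.18 to 0.41), and the interval of Axin2 began at 0.77. Dvl1, which carries the signal from the receptor, differed by 0.10 (95% interval -0.28 to 0.48). The arrays measured RNA, and neither the amount nor the location of beta-catenin protein.

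Of the nuclear factors, Tcf7l2 alone was tested. It was at 7.15, 7.68 and 8.08 with food removed and at 7.26, 8.0 and 8.49 ad lib. The groups overlapped (difference -0.31, 95% interval -0.75 to 0.14, adjusted p = 0.512).

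**Figure D3:**
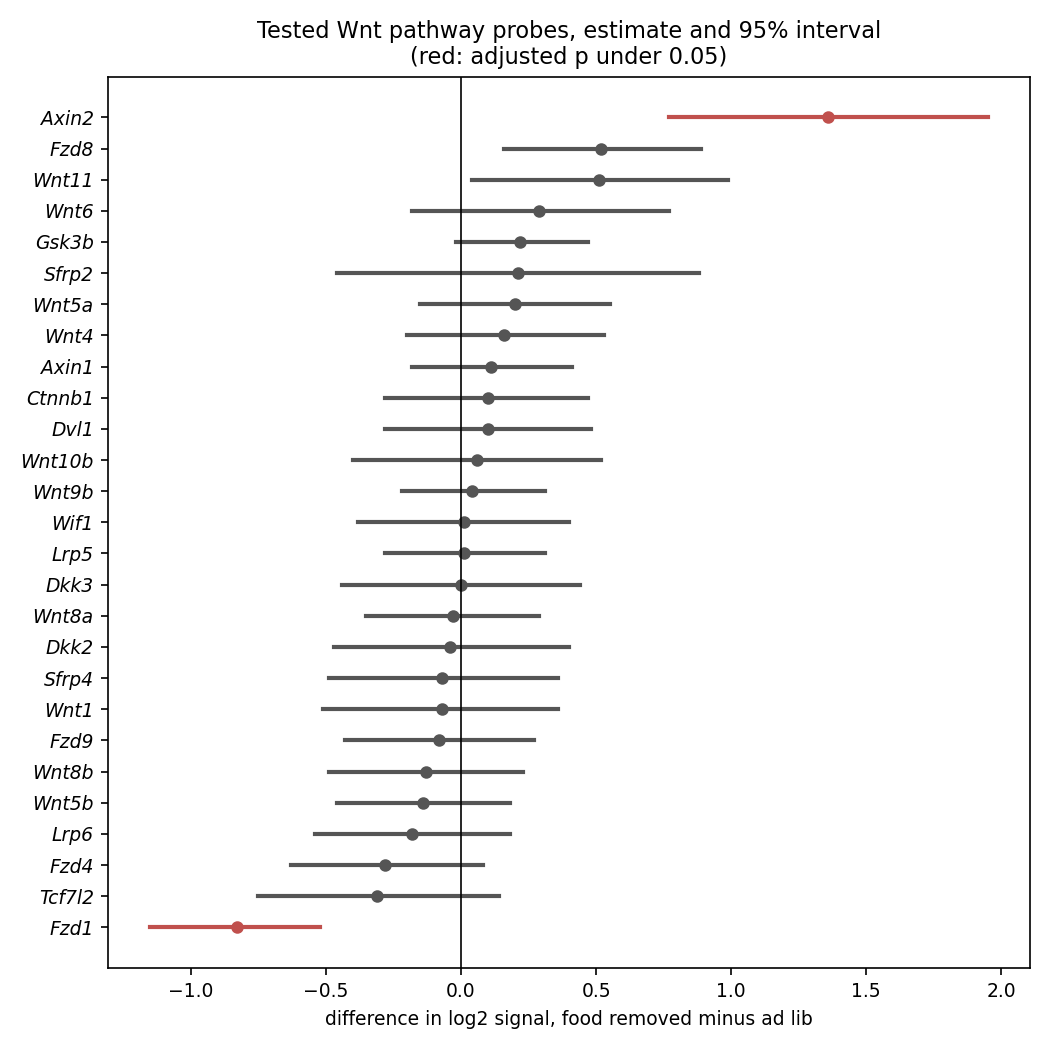
Difference in log2 signal, food removed minus ad lib (points), with its 95% interval (lines), for the 27 tested Wnt pathway probes in order of the difference. Axin2 at 1.36 and Fzd1 at -0.83 (red) passed an adjusted p of 0.05, and the other 25 (grey) did not.

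The remaining 14 probes were not tested, since each was detected on fewer than 6 arrays. Those for Dvl3, Fzd5, Sfrp5, Wnt10a, Wnt16 and Wnt3a and the other Fzd4 probe were detected on no array. Wnt7a was detected on 3 arrays, and Apc, Dkk1, Lef1, Wnt3, Wnt7b and Wnt9a on 1 each. For 3 of them, Dkk1, Lef1 and Wnt7b, that array was food removed replicate 3, the one with the strongest epididymis markers, so that without it they were detected on no array. No tested gene of the group was detected on all arrays of one group and on none of the other. Over the 27 tested probes, the median difference was 0.01 and 15 were above 0. For all tested probes the median was -0.02, and 5680 of them were above 0. Differences smaller than 0.5 in either direction made up 23 of the 27 and 11215 of the 12196.

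A list of 78 further gene symbols of the pathway was also counted, with Wls listed under an older symbol too. Among them were Wnt secretion factors, other receptors, casein kinases, nuclear cofactors and genes of the planar polarity branch. Of 61 with a probe, 45 were tested and none passed in limma, nor in the methods' t-test after Benjamini-Hochberg adjustment. Over all tested probes, 2.47% passed in limma and 1.89% in the methods' t-test. At an unadjusted p of 0.05, 9 of the 45 passed in limma and 7 in the methods' t-test, beside 15.9% and 15.7% of all tested probes. The median difference was 0.00. Mapk8, the JNK kinase of the planar polarity branch, came nearest, at 6.40, 6.66 and 6.77 with food removed and 5.82, 6.12 and 6.61 ad lib (difference 0.47, adjusted p = 0.0849). Rhoa, a small GTPase of that branch, was at 11.61, 12.18 and 12.40 with food removed and at 12.28, 12.63 and 12.80 ad lib (difference -0.49, adjusted p = 0.119). For both genes the groups overlapped. Btrc, which tags beta-catenin for degradation, was at 7.97, 8.15 and 8.58 against 8.34, 8.55 and 8.98 ad lib (difference -0.39, adjusted p = 0.149). Plcb1, a phospholipase, was at 8.02, 9.15 and 9.32 against 9.05, 9.64 and 10.08 (difference -0.61, adjusted p = 0.209). Without the 3 arrays with epididymis markers the Plcb1 difference was -0.41 (adjusted p = 0.333).

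Textbook targets of beta-catenin and the TCF factors were listed as well (38 symbols, Axin2 among them, with Ccn4 and Ccn5 also under their older symbols). Of 24 with a probe, 14 were tested, 2 were higher and none was lower, with a median difference of 0.15. Axin2, already reported above, is among these 2, so that the list adds only Ccnd1 to it. Over all tested probes, 1.05% were higher and 1.42% lower. None of the 14 passed with the methods' t-test, the replicate block or the position on the chip as a covariate, and with array weights 2 were higher and 2 lower. The second gene was Ccnd1, which encodes the cell cycle regulator cyclin D1. It was at 10.82, 11.40 and 11.59 with food removed and at 10.18, 10.57 and 11.03 ad lib. On 5 food removed arrays it was above every ad lib array (difference 0.74, SE 0.17, 95% interval 0.38 to 1.09, adjusted p = 0.0314). This call was lost in 14 of the 24 alternative settings, with adjusted p up to 0.244, and when arrays were left out in turn it held for 4 of 12 (food removed replicates 1 and 4, ad lib replicates 3 and 6). Without the 3 arrays with epididymis markers the difference was 0.75 (adjusted p = 0.052).

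Myc, the target gene that encodes a growth-promoting transcription factor, lay on the opposite side. It was at 8.83, 9.23 and 10.20 with food removed and at 9.38, 10.14 and 10.81 ad lib (difference -0.87, SE 0.25, adjusted p = 0.0882). Cldn1, a tight junction protein, was at 5.17, 5.73 and 7.02 against 6.17, 6.87 and 7.24 ad lib (difference -0.82, adjusted p = 0.195). With array weights both passed, Myc at -0.83 (adjusted p = 0.0176) and Cldn1 at -1.14 (adjusted p = 0.0216).

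Marker genes of the cell types of fat were counted beside these results. Of 9 adipocyte markers 1 passed, Lep, which encodes the fat cell hormone leptin (log2 difference 1.55, adjusted p = 0.0255). The summed adipocyte signal was 83800 to 106000 with food removed and 94200 to 118000 ad lib. None of 9 stromal markers passed (55100 to 71600 against 51800 to 67100), and none of 5 macrophage markers did (3430 to 6920 against 5120 to 8380). The median difference of the macrophage markers was -0.37, with all 5 below 0. For the 6 endothelial markers it was -0.38, with 4 below 0 and 2 above. At an unadjusted p of 0.05, 2 of 9 adipocyte, 2 of 9 stromal, 3 of 6 endothelial and 1 of 5 macrophage markers passed in limma. Over all tested probes, 15.9% passed at that level and 2.47% after adjustment. Of lymphocyte, smooth muscle, mesothelial and epididymis markers none passed, and at an unadjusted p of 0.05 only 1 smooth muscle marker did. The part of the cell make-up in the Axin2 result was not tested.

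**Figure D4:**
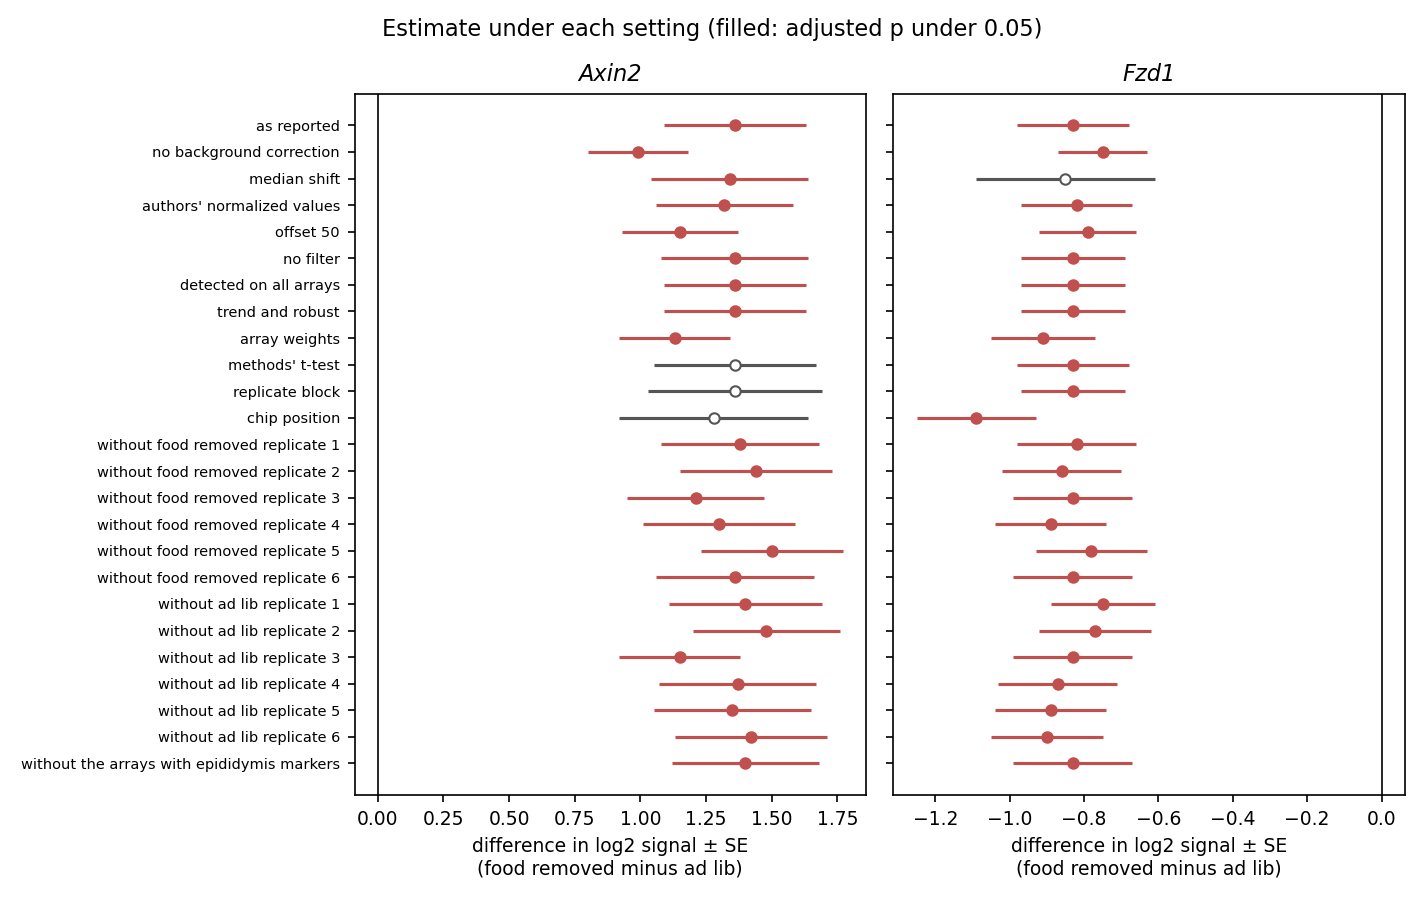
Difference in log2 signal, food removed minus ad lib, with its SE, for Axin2 and Fzd1 as reported and under 24 alternative settings (rows). Filled red points passed an adjusted p of 0.05 and open grey points did not. Axin2 ranged from 0.99 to 1.50 and Fzd1 from -1.09 to -0.75.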

How the data were processed

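RNA of 12 rats was hybridized to 1 RatRef-12 chip. The deposited table of bead signals gives, per the file headers, a raw intensity, a detection p-value and the standard error over beads for each probe and array. The authors' normalized intensity table (cubic spline, per the methods; GenomeStudio, version not given, per the submitters' processing notes) served as an alternative. Background correction and quantile normalization of the raw signals used limma's neqc (limma 3.58.1, R 4.3.3, offset 16), with detection p-values in place of control probes. A probe entered the test if 6 or more arrays detected it (p under 0.05). The groups were compared by lmFit and eBayes without covariates, two-sided and with Benjamini-Hochberg adjustment. The code was tested on simulated data. Probes were named from the platform annotation (13793 with 1 symbol, 8730 with none), and all 41 member probes were found in RefSeq by gene ID. Full values were given for Axin2, the members that passed and the 10 tested members with the smallest p. In the further pathway list and the target list, the genes that passed and the 4 with the smallest p were named, and of the cell type markers those that passed. The endothelial markers that did not pass were named as well, beside Fzd1. The member genes and lists were chosen with earlier results of these data known. Tcf3 was taken off the pathway list once its probe proved to be that of E2A. Illumina's own error model was not run here. Alternatives changed the background correction, normalization, offset, filter, variance model, array weights, test, threshold, covariates and arrays. Precision is limited by the number of arrays.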

Additional observations from a re-analysis of the deposited data

Results flagged for a closer look

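In 68 groups of 6 arrays (34 genes), 4 held an array far from the other 5 by Dixon's criterion, which chance alone meets in about 1 in 20 groups. Axin2 was 5.94 on ad lib replicate 3, where the nearest ad lib array was at 6.98, and without that array the difference in Axin2 was 1.15 (adjusted p = 0.0251). Fzd4 was 6.30 on ad lib replicate 1, where the nearest was 5.73, and without that array the difference in Fzd4 was -0.16 (adjusted p = 0.669), against -0.28 with it. Wnt9b was 5.42 on food removed replicate 6, where the nearest was 5.12. Myc was 10.20 on food removed replicate 4, where the nearest was 9.29, and without that array its difference was -1.04 (adjusted p = 0.0182).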

How the results depend on the processing

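The count of Wnt pathway probes that passed was 1 instead of 2 with the arrays shifted to one median (Axin2), with the methods' t-test, the replicate block or the chip position as a covariate (Fzd1 in each), and at an adjusted p of 0.01. It was 2 in every other setting, among them the removal of each array in turn. The Axin2 difference was 1.36 with the methods' t-test (adjusted p = 0.0641), 1.36 with the replicate block (adjusted p = 0.1) and 1.28 with the chip position (adjusted p = 0.247), and the cause was not tested. It ran from 1.15 to 1.50 when each array was left out in turn, with adjusted p of 0.0164 to 0.0459. The replicate numbers did not pair the arrays: correlations of same-numbered deviations ran from -0.41 to 0.13, and 0 of 12 arrays correlated best with their own number. Neither Axin2 nor any of the 16 genes counted below turned its sign. Several other members, none of which passed, did so without food removed replicate 3. They included Sfrp2 (-0.01), Fzd9 (0.04), Sfrp4 (0.10), Dkk2 (0.01), Lrp5 (-0.02) and Wif1 (-0.03). Without the 3 arrays with epididymis markers, those that turned included Sfrp2 (-0.07), Fzd9 (0.04), Sfrp4 (0.05) and Dkk2 (0.05). Over all probes, the count of 301 became 103 with the median shift, 840 with array weights, 178 with the block, 32 with the chip position, and 157 to 488 when arrays were left out in turn. The 16 other genes named with values by array gave 380 values, of which 359 kept their side of the threshold, 15 lost the call (14 of Ccnd1 and 1 of Fzd1) and 6 gained it. Of those gained, Mapk8 passed without ad lib replicate 1 (adjusted p = 0.0311), and Myc without food removed replicate 4 (0.0182) or ad lib replicate 6 (0.0309). The other 3 came from array weights: Myc (0.0176), Cldn1 (0.0216) and Btrc at -0.44 (0.0461).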
